A study of Mus musculus with 12 samples.

Results

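The 10 genes described here carry iron into the cell, move it to the mitochondrion, store it, export it and sense it. They were chosen by symbol (Tfrc, Tfr2, Steap3, Slc11a2, Slc25a37, Fth1, Ftl1, Slc40a1, Aco1 and Ireb2) for their place in iron handling, with earlier results of these data known, and all 10 were found once each among the 41128 genes counted. Their levels were followed in PreMegEs, the bone marrow progenitors that give rise to megakaryocytes and to erythroid cells.

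Iron travels in blood bound to transferrin, which is taken up by transferrin receptors, reduced inside the endosome and pumped into the cytosol. Developing red cells need more iron than any other cell of the body, because each haem group holds an iron atom that is inserted in the mitochondrion. Cytosolic iron that is not used is held in ferritin or leaves through ferroportin, and 2 RNA-binding proteins measure it: when iron is scarce they bind stem-loops called iron-responsive elements (IREs), which blocks translation of messages with an IRE in the 5' UTR and stabilises the Tfrc message through its 3' UTR.

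RNA-Seq libraries were made from PreMegEs of adult C57BL/6 bone marrow from mice of 12 to 16 weeks, in 4 groups of 3 libraries, each library from 3 pooled mice. The labels name no treatment. WT PreMegEs came from wild type mice. P2- and P2+ PreMegEs were both sorted from heterozygous knock-in mice, genotype Runx1 P1-GFP::P2-hCD4/+, in which the distal Runx1 promoter P1 drives GFP and the proximal promoter P2 drives a truncated human CD4; P2- cells lacked the hCD4 reporter and P2+ cells carried it, so that 1 Runx1 allele is a reporter allele in both fractions and in no WT cell. KO PreMegEs came from mice described as RUNX1C knockout, without the isoform made from P1; by the study's methods this line is homozygous for a GFP insertion at P1.

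Library totals ranged from 10726098 to 14445026 counts, with a median of 12284879, and 3 counts, the limit that a count of 0 allows, corresponded to between 0.208 and 0.280 CPM (counts divided by library size, here scaled by the TMM method of edgeR). A list of 10 genes of PreMegE identity, surface genes of the sort with Gata1 and Gata2, summed to between 2451 and 2868 CPM in all 12 libraries. Between P2+ and P2- 3 of them were higher and 2 lower (20.1% and 17.0% of all genes tested were), and Itga2b (CD41) was at a mean of 283 CPM in P2+ against 50.7 in P2-. Runx1 itself was at 613 to 658 CPM in P2+, 201 to 216 in P2-, 358 to 388 in WT and 340.4 to 382 in KO libraries. These counts take the transcripts of both promoters together and cannot check the loss of RUNX1C. Replicate 2 of P2- and of P2+ PreMegEs stood apart from the rest: their immediate early genes summed to 13772 and 9420 CPM, against 228 to 1353 CPM in the other 10 libraries.

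The transcript sequences were searched for the letters of an IRE. A search of the coding strand of all annotated protein-coding transcripts (GENCODE vM21, GRCm38) for the IRE loop CAGTGN on a stem of 5 paired bases, wobble pairs allowed, with a C just before the stem, found 7 matches in 4 of the 10 genes, and all 7 had at least 4 of 5 further paired bases below the C. Of 21901 protein-coding genes, 1.34% held the loop with its paired stem and 0.137% also held that lower stem. They are printed because the iron genes differ in just this feature, with the 6 bases of the loop in capitals. The 4 matches of Tfrc lie in its 3' UTR, on the plus strand at chr16:32631220-32631246, chr16:32631599-32631625, chr16:32631664-32631690 and chr16:32631711-32631737, in that order:
Tfrc match 1: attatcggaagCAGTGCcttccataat
Tfrc match 2: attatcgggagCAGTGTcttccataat
Tfrc match 3: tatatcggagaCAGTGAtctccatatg
Tfrc match 4: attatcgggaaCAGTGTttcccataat
The matches of Fth1 (plus strand, chr19:9982733-9982759), Ftl1 (minus strand, chr7:45459780-45459806) and Slc40a1 (minus strand, chr1:45925466-45925492) lie in the 5' UTR:
Fth1: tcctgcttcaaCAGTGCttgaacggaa
Ftl1: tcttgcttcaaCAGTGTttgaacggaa
Slc40a1: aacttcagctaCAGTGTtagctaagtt

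The Slc40a1 match is in 1 of its 4 annotated coding transcripts and the Tfrc matches are in 1 of 3. The counts sum over all transcripts of a gene and do not tell messages with an IRE from those without. The search asked for one fixed arrangement of loop and stem and would miss an element with another, so no match in the other 6 genes says only that these letters in this arrangement are not in their annotated transcripts. A match in a transcript is a description of sequence, and whether a protein binds it was not measured.

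Between P2+ and P2- PreMegEs, 7 of the 10 genes were lower in P2+ cells and 0 were higher. Over all 12836 genes tested in that comparison, 17.0% were lower and 20.1% higher (edgeR's quasi-likelihood test with Benjamini-Hochberg adjustment, adjusted p under 0.05). The exporter Slc40a1 differed most, and the surface, endosomal and sensing genes Tfrc, Slc11a2, Steap3, Aco1 and Tfr2 followed, while the ferritin gene Fth1 moved little. The median log2 fold change of the 10 genes was -0.92, against -0.02 for all genes tested. Of all genes tested, 49.9% had no overlap between P2+ and P2- libraries. Against WT the share was 35.5% for P2+, 34.7% for P2- and 31.6% for KO, so groups without overlap, as named below, are common. In these bulk libraries fewer expressing cells and less RNA per cell cannot be told apart.

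**Figure D1:**
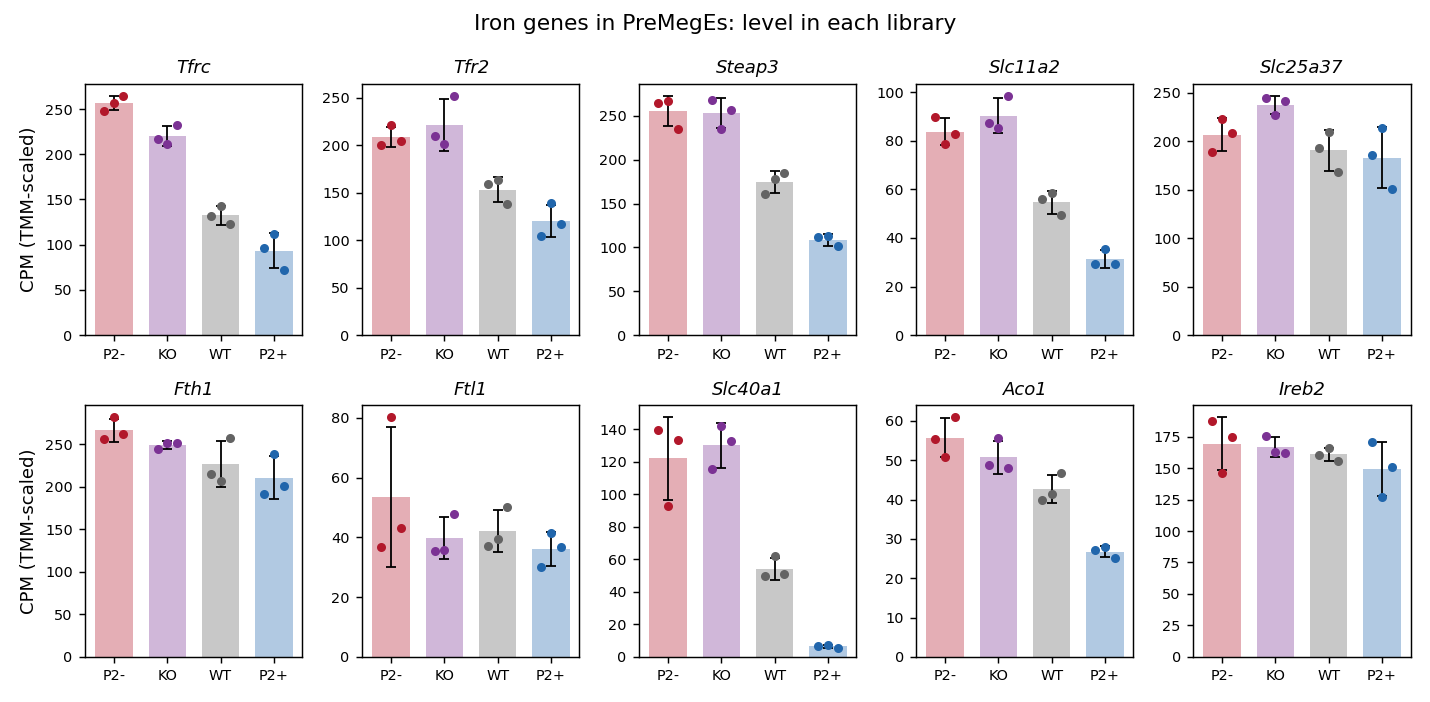
Level of each of the 10 iron genes in CPM (TMM-scaled, linear axes from 0) in P2-, KO, WT and P2+ PreMegEs. Points are the 3 libraries of a group, bars the mean and lines the SD; Slc40a1 lies between 5.71 and 7.29 CPM in P2+ and between 93.1 and 139.9 CPM in P2- libraries, while Ireb2 and Slc25a37 overlap between these fractions.

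Tfrc encodes transferrin receptor 1 (CD71), the main door for transferrin iron in erythroid cells. Its level was 248, 257 and 265 CPM in P2-, 216, 212 and 232 in KO, 131, 143 and 123 in WT, and 96.2, 112 and 72.5 in P2+ libraries. No 2 of the 4 groups overlapped, and the order of the means was P2-, KO, WT and P2+. Against P2-, P2+ PreMegEs had a log2 fold change of -1.45 (SE 0.14, adjusted p = 7.52e-05, edgeR's quasi-likelihood test), or 2.74-fold less. Tfrc also passed the test against WT in P2- (0.97, adjusted p = 5.3e-05), in KO (0.73, adjusted p = 1.12e-06) and in P2+ PreMegEs (-0.49, adjusted p = 0.0325). That last call was lost without replicate 1 or 3 of P2+ or any 1 of the WT replicates, with an adjusted p between 0.0544 and 0.121.

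Tfr2, transferrin receptor 2, is a relative of Tfrc that binds transferrin more weakly and takes part in iron sensing in liver and in erythroid cells. It was at 201, 221 and 205 CPM in P2-, 209.7, 202 and 252 in KO, 159, 163 and 138 in WT and 105, 139 and 117 in P2+ libraries. The KO and P2- libraries overlapped, as did WT and P2+. The log2 fold change was -0.79 (SE 0.10, adjusted p = 0.000498) between P2+ and P2-, 0.46 (adjusted p = 0.00605) between P2- and WT and 0.52 (adjusted p = 0.00031) between KO and WT PreMegEs in edgeR's quasi-likelihood test. Between P2+ and WT it was -0.34 with an adjusted p of 0.0588, and 7 of the 16 alternative settings put it past the threshold, among them the fit without replicate 2 of P2+ (-0.46, adjusted p = 0.00434).

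Steap3 encodes the endosomal ferrireductase that turns ferric into ferrous iron after uptake. Libraries measured 265, 267 and 236 CPM in P2-, 269, 235 and 257 in KO, 161, 178 and 185 in WT and 112, 113 and 101 in P2+. WT stood between the 2 reporter fractions without touching either, and KO and P2- overlapped. The log2 fold change was -1.23 (SE 0.08, adjusted p = 1.25e-05) between P2+ and P2-, and against WT it was -0.68 (adjusted p = 0.000538) in P2+, 0.56 (adjusted p = 0.00204) in P2- and 0.53 (adjusted p = 4.71e-05) in KO PreMegEs (edgeR's quasi-likelihood test).

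Slc11a2 (DMT1) is the transporter that moves ferrous iron out of the endosome. It was at 89.6, 78.6 and 82.8 CPM in P2-, 87.2, 85.2 and 98.6 in KO, 55.9, 58.4 and 49.5 in WT and 29.4, 35.6 and 29.1 in P2+ libraries. P2- and KO overlapped and no other groups did. P2+ PreMegEs had 2.66-fold less than P2- (log2 fold change -1.41, SE 0.11, adjusted p = 2.23e-05, edgeR's quasi-likelihood test), and WT lay 0.79 above P2+ and 0.63 below P2- on the log2 scale (adjusted p = 0.00117 and 0.00124). KO PreMegEs were 0.72 above WT (adjusted p = 1.46e-05). Slc11a2 shares 402 exonic bases with Gm5475 on the other strand, a gene with at most 5 counts in any library.

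These 4 genes of the transferrin cycle varied together over the 12 libraries, with Pearson's r of log2 CPM between 0.92 and 0.97 for each pair. The value is a description across 4 groups that differ, and all genes share the library depths.

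Slc25a37 (mitoferrin 1) brings iron into the mitochondria of erythroid cells. In contrast to the transferrin cycle it was at 189, 223 and 208 CPM in P2-, 193, 209.7 and 168 in WT and 186, 213 and 150.3 in P2+ libraries, and these 3 groups overlapped. None of the comparisons among them passed the test: between P2+ and P2- the log2 fold change was -0.17 (95% confidence interval -0.46 to 0.11, adjusted p = 0.321, edgeR's quasi-likelihood test). KO libraries, at 244, 227 and 241 CPM, were all above the other 9 libraries, and the log2 fold change over WT was 0.31 (SE 0.07, adjusted p = 0.0077). With all 12 libraries in one model the adjusted p of that difference was 0.0955. Slc25a37 shares a stretch of 382 bases at 100% identity with Gm28049 and 92 exonic bases with Gm27223 on the other strand. Both had 0 counts in all 12 libraries, so how reads of the shared stretches were assigned cannot be told from the counts.

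Fth1 and Ftl1 encode the heavy and light chains of ferritin, the shell that stores iron. Fth1 was at 255, 281 and 262 CPM in P2-, 244, 251 and 252 in KO, 215, 206 and 257 in WT and 191, 239 and 201 in P2+ libraries. It was lower in P2+ than in P2- PreMegEs (log2 fold change -0.34, SE 0.10, adjusted p = 0.0229, edgeR's quasi-likelihood test). The libraries of these fractions did not overlap, which held for 49.9% of all genes tested. The call was lost in the absence of replicate 1 or 3 of P2+ or replicate 2 or 3 of P2-, with an adjusted p between 0.0531 and 0.0915, and with edgeR's exact test (adjusted p = 0.0708). In the other 3 comparisons Fth1 did not pass the test, with log2 fold changes of -0.10 (P2+ against WT), 0.25 (P2- against WT) and 0.13 (KO against WT). Without replicate 3 of WT the last 2 became 0.35 and 0.23 and passed (adjusted p = 0.0348 and 0.0148).

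Ftl1 was at 36.9, 80.2 and 43.1 CPM in P2-, 35.5, 35.7 and 48.0 in KO, 37.1, 39.4 and 50.3 in WT and 30.0, 41.3 and 36.9 in P2+ libraries. All groups overlapped, and the one high value was replicate 2 of P2-, one of the 2 libraries with many immediate early transcripts. The log2 fold change of P2+ over P2- was -0.56 with that library and -0.14 when it was left out (adjusted p = 0.141 and 0.529, edgeR's quasi-likelihood test). Its direction between P2- and WT turned from 0.34 to -0.08 in the same way.

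Ferritin reads are hard to assign, because the genome holds processed copies of both genes. Of the reads on Fth1 and its copy Gm6977, the copy held between 20.2% and 22.5% by group mean. Of the reads on Ftl1 and its 7 copies the copies held between 44.6% and 49.4%, almost all of it on Gm10116, whose sequence matches Ftl1 transcripts at 99.6% over 910 bases. With the reads of the copies added, the log2 change of P2+ over P2- cells became -0.31 for Fth1 (adjusted p = 0.0343) and -0.42 for Ftl1 (adjusted p = 0.0993), so that neither changed its side of the threshold.

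**Figure D2:**
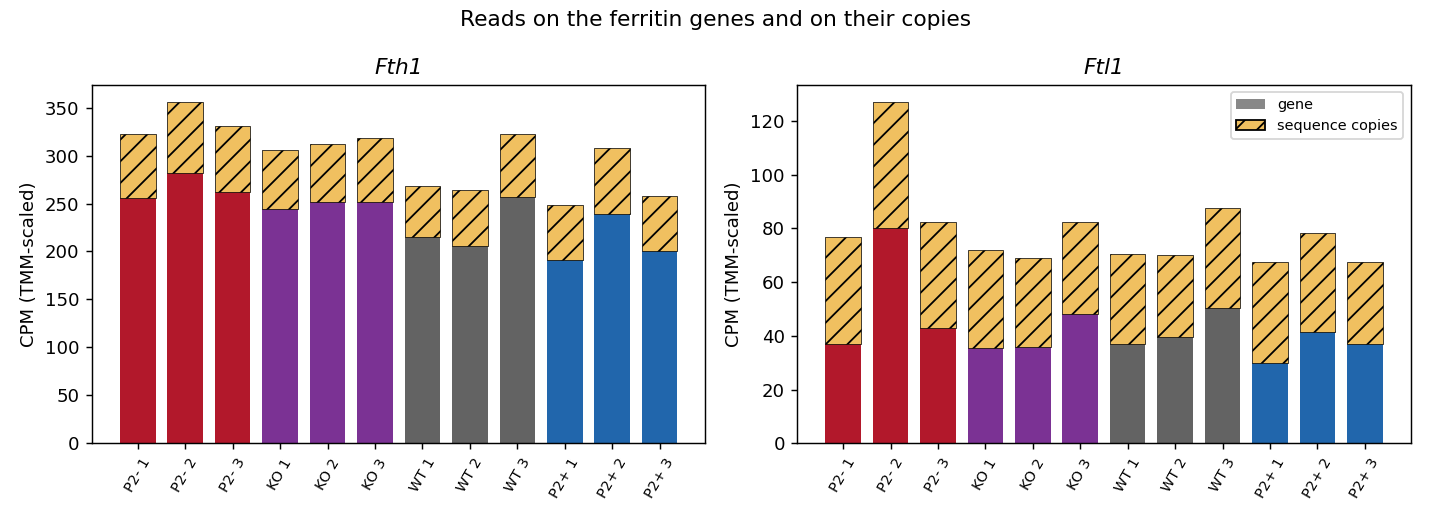
CPM (TMM-scaled, linear axes from 0) of Fth1 and Ftl1 in each of the 12 libraries as solid bars, coloured by group, with the summed CPM of their sequence copies stacked on top in hatched bars. Copies hold 20.2% to 22.5% of the stack of Fth1 and 44.6% to 49.4% of that of Ftl1 by group mean, and replicate 2 of P2- has the tallest Ftl1 bar.

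Slc40a1 encodes ferroportin, the exporter of iron from cells, on chromosome 1 from 45908068 to 45926523. It had the widest span of the 10 genes. Its level was 139.9, 93.1 and 133 CPM in P2-, 115, 142 and 133 in KO, 49.7, 61.9 and 50.8 in WT, and 6.62, 7.29 and 5.71 in P2+ libraries. In raw reads the P2+ libraries held 79, 105 and 75 counts, above the limit that a count of 0 allows. The order of the means was KO, P2-, WT and P2+, and KO and P2- overlapped whereas WT and P2+ stood apart from them and from each other.

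P2+ PreMegEs had 18.6-fold less Slc40a1 than P2- (log2 fold change -4.21, SE 0.18, adjusted p = 2.01e-06, edgeR's quasi-likelihood test) and 8.22-fold less than WT (-3.04, SE 0.15, adjusted p = 1.31e-06). P2- and KO PreMegEs had 2.28-fold and 2.40-fold more than WT (log2 fold changes 1.19 and 1.26, adjusted p = 0.000511 and 6.45e-08). With replicate number 2 left out of both fractions the value for P2+ over P2- was -4.46. Beside an adjusted p under 0.05, a change of at least 2-fold was met by 5 of the 10 genes between P2+ and P2- (3.13% of all genes tested were lower by this measure). Slc40a1 alone met it between P2+ and WT (1.68% lower), between P2- and WT (0.572% higher) and between KO and WT PreMegEs (0.743% higher).

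Ferroportin is abundant in macrophages that recycle red cells, so the markers of such cells were read beside it. The 14 macrophage markers summed to between 19.2 and 28.9 CPM in every library, the most abundant by the mean over the 12 libraries were Axl and Cd68, and 3 of the 14 were at or under 3 counts in all libraries. Between P2+ and P2- PreMegEs 1 of the 6 tested was higher and 1 lower, near the 20.1% and 17.0% of all genes. The erythroid markers, with Aqp1 and Car2 the most abundant by the mean over the 12 libraries, differed between the groups. Their summed level was 5673 to 6549 CPM in P2-, 5520 to 6212 in KO, 3252 to 3767 in WT and 1242 to 1436 in P2+ libraries. Slc4a1 (27.3 against 19.3 CPM) and Hbb-bt (3.67 against 1.96) had higher means in P2+ than in P2-, and the means of the other markers were lower. Of the 13 erythroid markers tested, 11 were lower and 0 higher in P2+ than in P2- (17.0% of all genes were lower), 10 were higher in P2- than in WT (6.85% of all genes) and 9 in KO than in WT PreMegEs (6.18%). Their part in the result was not tested.

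The cytosolic proteins that bind IREs are encoded by Aco1 (IRP1, which serves as an aconitase when iron is plentiful) and Ireb2 (IRP2, which is degraded when iron is plentiful). Aco1 was at 55.4, 50.9 and 60.9 CPM in P2-, 48.7, 55.6 and 48.0 in KO, 40.0, 41.3 and 46.8 in WT and 27.2, 28.0 and 25.1 in P2+ libraries. P2+ libraries lay below all others, and WT libraries below those of P2- and KO, which overlapped. The log2 fold change was -1.05 between P2+ and P2- (SE 0.11, adjusted p = 0.000104), -0.67 between P2+ and WT (adjusted p = 0.00264) and 0.40 between P2- and WT PreMegEs (adjusted p = 0.0235) in edgeR's quasi-likelihood test. The last of these was lost in 4 of the 6 fits that left out 1 library, those without replicate 1 or 3 of P2- or replicate 1 or 2 of WT, with an adjusted p between 0.0558 and 0.107. In KO over WT it was 0.24 (95% confidence interval 0.03 to 0.45), with an adjusted p of 0.122.

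Ireb2 ranged from 146 to 187 CPM in P2-, 162 to 176 in KO, 156 to 166 in WT and 127 to 170.3 in P2+ libraries, and each group overlapped the next in order. Its log2 fold change was -0.18 between P2+ and P2- (95% confidence interval -0.46 to 0.10, adjusted p = 0.305), and between -0.10 and 0.09 in the 3 comparisons with WT, none of which passed the test. The difference between Aco1 and Ireb2 in their response was not tested.

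P2+ and P2- libraries of the same number deviated together, so the comparison of the 2 fractions was also made with the replicate number as a block. In this paired analysis 9 of the 10 genes were lower in P2+ PreMegEs, against 24.8% of all genes tested. The 2 genes gained were Ftl1 (log2 fold change -0.50, adjusted p = 0.00533) and Ireb2 (-0.18, adjusted p = 0.0184), and Slc25a37 did not pass either way. Without number 2 in both fractions, the pair with many immediate early transcripts, the fit without the block gave -0.25 for Ftl1 (adjusted p = 0.212) and -0.16 for Ireb2 (adjusted p = 0.189).

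The 2 fractions were also set against WT PreMegEs, which carry no reporter and were not divided by it. Cells of both kinds can be among them, so a WT level between those of the fractions is no separate finding. In P2+ PreMegEs 5 genes were lower than in WT (Slc40a1, Slc11a2, Steap3, Aco1 and Tfrc) and 0 higher, where 7.07% of the 12941 genes tested were lower and 9.45% higher. In P2- PreMegEs 6 were higher (the same 5 and Tfr2) and 0 lower, where 6.85% of the 12767 genes tested were higher and 9.60% lower. The median log2 fold change of the 10 genes was -0.42 in P2+ and 0.43 in P2- over WT. Both comparisons use the same WT libraries, so they are not independent of each other or of the comparison between the fractions.

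In RUNX1C KO PreMegEs 6 of the genes were higher than in WT (Slc40a1, Tfrc, Slc11a2, Steap3, Tfr2 and Slc25a37) and 0 lower, where 6.18% of the 12784 genes tested were higher and 8.76% lower. The median log2 fold change was 0.42, close to that of P2- over WT, with which it shares the WT libraries. The text of the study's paper describes RNA-Seq of WT, P2- and P2+ PreMegEs and not of KO cells. The sources used here do not say whether the KO libraries were prepared and sequenced with the others, so a batch and the genotype cannot be told apart.

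**Figure D3:**
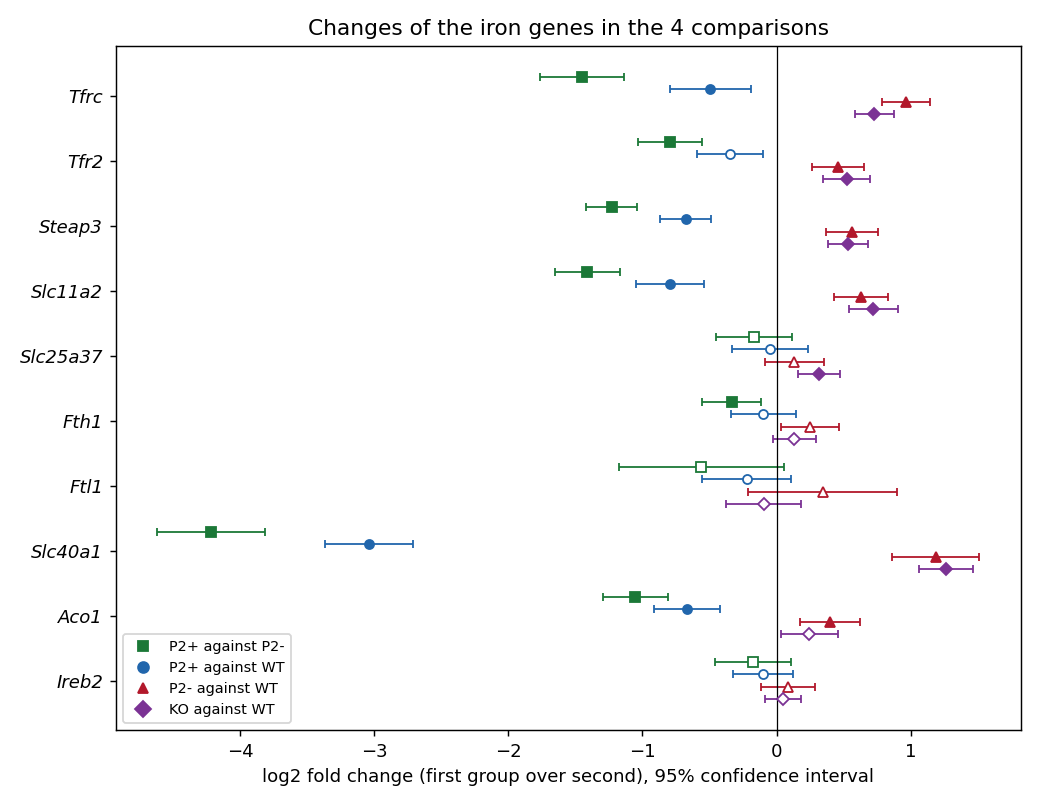
Log2 fold change of the 10 iron genes (first group over second) in the 4 comparisons, with 95% confidence intervals from edgeR; filled symbols passed an adjusted p under 0.05 and open symbols did not. Slc40a1 lies at -4.21 and -3.04 in the comparisons of P2+ PreMegEs and at 1.19 and 1.26 in those of P2- and KO over WT, and Ireb2 is open in all 4.

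Per length, measured as RPKM (the TMM-scaled CPM divided by the summed length of all annotated exons in kilobases), the storage gene Fth1 had the highest mean level over the 12 libraries, 68.6 RPKM, followed by Tfr2 (40.6), Steap3 (34.7), Slc25a37 (33.9), Ftl1 (32.0) and Tfrc (28.4). Ireb2 was at 17.0, Slc11a2 at 10.2, Aco1 at 9.79 and Slc40a1 at 8.69 RPKM. The ferritin values leave out the reads on copies, 20.2% to 22.5% for Fth1 and 44.6% to 49.4% for Ftl1 by group mean. The place of Ftl1 in this order therefore depends on how its reads were assigned. The reads were aligned without splicing, and the part of this in the levels per length was not tested. Within a group the order differed: in P2- PreMegEs Tfrc, at 41.5 ± 1.32 RPKM (SD, n = 3), exceeded Slc25a37 at 34.3 ± 2.81, and in P2+ PreMegEs it was at 15.1 ± 3.20 against 30.4 ± 5.22. With the longest transcript in place of all exons, Slc40a1 moved from rank 10 to rank 8, since its exons add up to 9000 bases and its longest transcript to 3928.

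The other iron genes were taken from a list of 73, of which 72 were in the table and 56 to 58 were abundant enough to be tested. Between P2+ and P2- PreMegEs 15 of 58 were lower and 3 higher, and 40 did not pass, where 17.0% of all genes tested were lower and 20.1% higher. With the replicate block 21 were lower and 8 higher, where 24.8% of all genes tested were lower and 25.9% higher. The median of the list was -0.11, against -0.02 for all genes.

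Of the 27 tested genes of mitochondrial iron and of mitochondrial or cytosolic iron-sulphur cluster assembly, 11 were lower and 0 higher, beside the same 17.0% and 20.1% of all genes. Iba57, a late factor of iron-sulphur cluster assembly, fell from 105 to 40.8 CPM (log2 fold change -1.36, adjusted p = 5.16e-05). Outside this group the largest fall was that of Blvrb, the biliverdin reductase of haem breakdown, from 48.4 ± 2.78 to 8.71 ± 1.45 CPM (SD, n = 3; log2 fold change -2.47, adjusted p = 5.37e-06), and the metal transporter Slc39a8 fell from 20.6 ± 3.69 to 9.38 ± 1.19 CPM (adjusted p = 0.00156). The 3 higher genes were Hfe, a partner of transferrin receptors (2.38, adjusted p = 0.0343, at 1.60 against 0.313 CPM), the haem oxygenase Hmox2 (0.47, adjusted p = 0.00429) and the hypoxia factor Hif1a (0.45, adjusted p = 0.00176), all by edgeR's quasi-likelihood test. Hfe was tested only through the P2+ libraries, since its level in P2- was near the limit that a count of 0 allows, so its call and its place among the 3 rest on that filter. Of the 4 genes of storage and ferritin turnover 1 was lower (17.0% of all genes were), the iron chaperone gene Pcbp2 (-0.23, adjusted p = 0.0407).

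**Figure D4:**
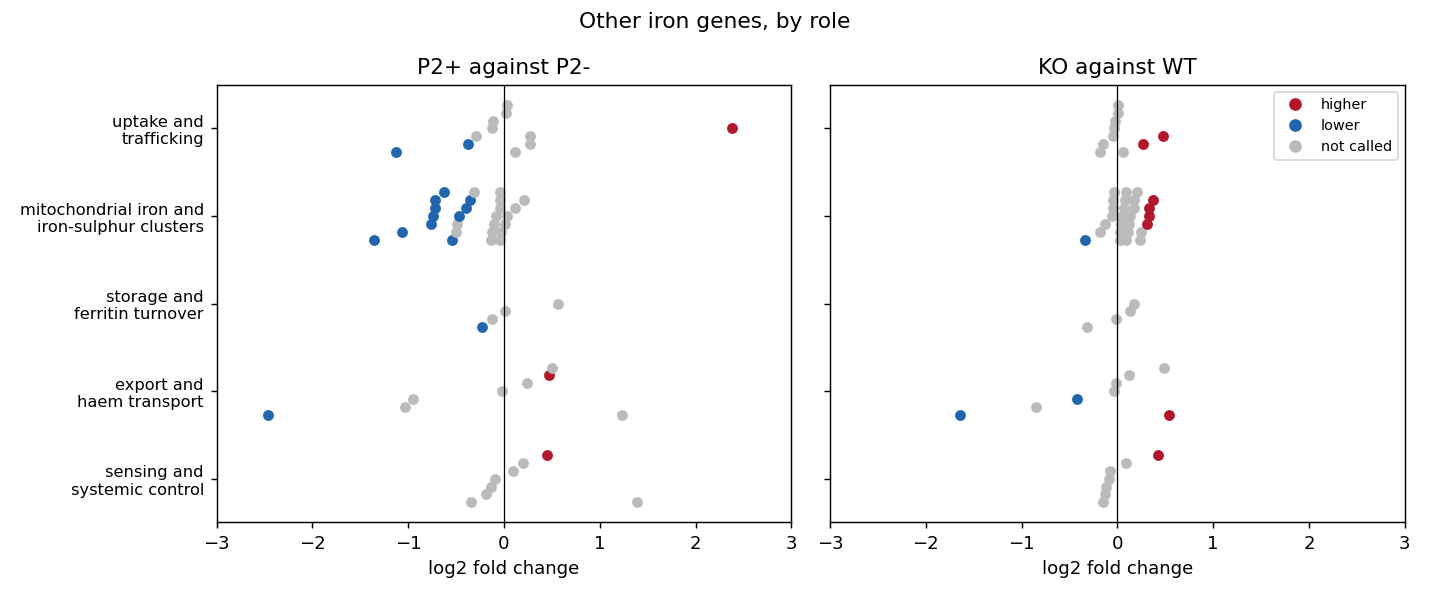
Log2 fold changes of the other iron genes tested, grouped by role on the vertical axis, for P2+ against P2- (left) and KO against WT PreMegEs (right). Each point is a gene, blue for lower, red for higher and grey for not called. The group of mitochondrial iron and iron-sulphur clusters holds cytosolic assembly genes too. On the left 11 of its 27 genes are blue and 0 red, where 17.0% of all genes were lower and 20.1% higher. On the right 1 of 27 is blue and 4 are red, where 8.76% of all genes were lower and 6.18% higher.

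Against WT, 7 of 58 other iron genes were lower in P2+ PreMegEs and 1, Hif1a, was higher (log2 fold change 0.32, adjusted p = 0.0131), where 7.07% of all genes were lower and 9.45% higher. Among the called genes the deepest falls were those of Blvrb (-1.89, adjusted p = 7.89e-05), Iba57 (-0.89, adjusted p = 0.000138) and the glutaredoxin Glrx5 (-0.54, adjusted p = 0.0101) in edgeR's quasi-likelihood test. In P2- PreMegEs 8 of 56 were higher than in WT and 1 lower (6.85% and 9.60% of all genes), the higher ones led by Blvrb (0.58, adjusted p = 0.0124), Glrx5 (0.53, adjusted p = 0.00686) and Iba57 (0.47, adjusted p = 0.014). The gene that was lower was Hmox1, the inducible haem oxygenase, at 1.73 against 4.68 CPM (-1.39, adjusted p = 0.0363). These counts depended on single WT libraries: without replicate 1 or 2 of WT, 4 and 5 genes were called for P2+ in place of 8, and 5 and 3 for P2- in place of 9.

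In KO over WT PreMegEs 8 of 56 were higher and 3 lower, where 6.18% of all genes were higher and 8.76% lower. Of the called genes, Blvrb (0.53, adjusted p = 0.00576), Slc39a8 (0.48, adjusted p = 0.0479) and the oxygen sensor Egln1 (0.42, adjusted p = 0.0167) rose the most. Hmox1 (-1.64, adjusted p = 0.00236, at 1.50 against 4.68 CPM), the porphyrin exporter Abcg2 (-0.42, adjusted p = 0.0357) and Fam96a, of cytosolic iron-sulphur assembly (-0.34, adjusted p = 0.00341), fell, all by edgeR's quasi-likelihood test. The count of calls was 7 in place of 11 without replicate 2 or 3 of KO or replicate 1 of WT, 6 without replicate 2 of WT, and 2 without replicate 2 of both groups.

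Haem synthesis, which uses the imported iron, was followed through 9 tested genes of haem and globin. P2+ PreMegEs had 7 of them at a lower and 0 at a higher level than P2- (17.0% and 20.1% of all genes), with a median log2 fold change of -0.62, and the most abundant were Cpox and Fech. Not all of the list went this way. The scarce Alas2 (2.39 against 1.26 CPM), Hbb-bt (3.67 against 1.96) and Hbb-bs (12.3 against 11.7) had higher means in P2+ than in P2-. The means of the other genes of the list were lower in P2+. In both P2- and KO over WT 3 of 10 were higher, with medians of 0.32 and 0.22 (6.85% and 6.18% of all genes were higher). Of a list of 7 genes linked to control of the transferrin cycle, 6 transcription regulators and Epor, the erythropoietin receptor, 5 were lower (Klf1, Epor, Gata1, Stat5a and Stat5b) and 0 higher in P2+ than in P2- PreMegEs, beside 17.0% and 20.1% of all genes. The most abundant, Gata2, did not pass, at a mean of 987 CPM in P2+ and 915 in P2-.

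Over the 12 libraries and among 8497 genes with a mean of at least 10 CPM, the genes whose log2 CPM was most like that of Slc40a1 were Tnfaip2, Klf1, the erythroid Kruppel-like factor, and Slc38a5, with Pearson's r of 0.995, 0.995 and 0.994. For Tfrc they were Cldn13, Tsr1 and Ipo4 (0.987, 0.981 and 0.978), and for Aco1 Esyt2, Stom and Mns1 (0.99, 0.98 and 0.979). Among the genes most like Steap3 were Gna12 and Htra2 (0.989 and 0.985), and Slc11a2 was most like Paqr9, Myo1d and C5ar2 (0.986, 0.985 and 0.983) and Tfr2 like Rfk, Slc11a2 and Slc45a3 (0.969, 0.965 and 0.962).

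Among the genes nearest to Slc25a37 were Pmm2 and Ddit3 (0.94 and 0.93). Fth1 was nearest to Icam4, Tatdn2 and Eif3b (0.959, 0.931 and 0.929), Ftl1 to Rpl26, Brd2 and Prkcsh (0.916, 0.895 and 0.89) and Ireb2 to Trim25, Fam210a and Exoc8 (0.981, 0.961 and 0.954). All of these values follow the differences between the 4 groups and the shared depth of a library, and are given without a test.

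RefSeq promoter windows (GRCm38.p6, 250 bases before to 50 after a start site) were found for 7 of the 10 genes, in 14 windows. For Slc11a2, Slc25a37 and Slc40a1 the window table used here holds no entry. The windows were searched on both strands. Factors of the GATA family were represented by the letters AGATAA, which 11.2% of all 32851 windows hold. For KLF1 the letters were CCACACCC, held by 3.56% of the windows. RUNX factors were searched as TGTGGT, present in 16.8%, and NRF2 and BACH factors as TGACNNNGC, present in 12.4%. Matches were found in 1 window of Tfr2 and 1 of Steap3. The GATA, KLF1 and RUNX letters were each in 1 of the 14 windows, too few to set against the shares of all windows. Tfr2 and Steap3 were lower in P2+ than in P2- PreMegEs, but so were Tfrc, Fth1 and Aco1, whose windows held no match. The matches are shown in 30-base stretches, with the matching letters or their complement in capitals. The Tfr2 match to the KLF1 letters lies on the plus strand window at chr5:137569807-137569836, and those of Steap3 to the RUNX letters, in 2 copies that share 1 base, and to the GATA letters lie in a minus strand window at chr1:120271129-120271158 and chr1:120271108-120271137:
Tfr2, KLF1 letters: cgtgctctagtGGGTGTGGcctcagtaggc
Steap3, RUNX letters: gggtggggttTGTGGTGTGGTgtccggaga
Steap3, GATA letters: gtccggagagtgTTATCTccctccagttat
No match in the other 12 windows says only that these letters are not within them, and nothing about binding was measured.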

How the data were processed

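PreMegEs were sorted from pooled bone marrow and strand-specific poly(A) libraries were sequenced. According to the study's methods and the submitters' notes, the authors aligned the reads to GRCm38 with Bowtie2, which does not splice alignments, and counted them on genes. The deposited values are whole-number counts per gene and library, not normalized. Whether the counting used strand, and how it treated reads with several hits, is not given in the sources used here, so overlapping genes and genes with copies are uncertain.

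Groups were taken from the labels, and all 12 columns were mapped. For each pair of groups (6 libraries) genes that reached 1 CPM in 3 or more libraries were tested with edgeR 4.0.16 in R 4.3.3 (TMM scaling, quasi-likelihood F-test on the group, two-sided, Benjamini-Hochberg adjustment over all genes tested), and called at an adjusted p under 0.05. Nothing in the labels says that pools shared no mice, so p-values measure the spread between these libraries. The scripts were tested on simulated data with known changes. Alternatives were DESeq2 1.42.0, edgeR's exact test, other scalings and filters, all 12 libraries in one model, leaving out libraries, a replicate block and ferritin counts with copies; the copies found by sequence (at least 90% identity over at least 200 bases) were chosen after seeing the data. P2+ and P2- libraries of the same number deviated together from their group means (r across genes 0.386, 0.572 and 0.405), so the numbers pair these samples; where this comes from is not stated. Named genes are the 10 iron genes, the 3 highest and 3 lowest called other iron genes of each comparison, the 2 most abundant genes of marker lists and the 3 genes most like each iron gene, of which 2 are not reported here. Runx1, Pcbp2, Gata1, Klf1, Epor, Stat5a, Stat5b, Alas2, Hbb-bs, Hbb-bt and Slc4a1 fall outside this rule and were named after their values were seen. The genes and lists were chosen with earlier results of these data known. Positions and lengths are from GENCODE vM21 (GRCm38), promoters from RefSeq (GRCm38.p6). RPKM used TMM-scaled counts and all exonic bases.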

Additional observations from a re-analysis of the deposited data

How the results depend on the processing

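Over the 10 iron genes and 4 comparisons, 656 alternative fold changes were computed: 622 kept direction and side of the threshold, 15 lost a call, 11 gained one and 8 turned direction, and none of the 8 was of a called gene. The turned values were small: between P2+ and WT, leaving out 1 library gave -0.20 to 0.0012 for Ireb2, -0.18 to 0.067 for Slc25a37 and -0.20 to 0.0037 for Fth1, and without number 2 in both groups Ireb2 was at 0.022. Ftl1 ranged from -0.077 to 0.55 for P2- over WT (-0.12 without number 2 in both) and from -0.25 to 0.048 for KO over WT. With a minimum of 2-fold, 1 iron gene was called in each comparison with WT. By this measure 5 of 58 other iron genes were called between P2+ and P2-, against 12.7% of all genes tested. In each comparison with WT 1 other iron gene was called, of 56 to 58 tested. The shares of all genes there were 3.84% (P2+), 4.68% (P2-) and 3.41% (KO).

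The replicate block raised the other iron genes called between P2+ and P2- from 18 to 29 of 58 tested. Of all genes tested it called 24.8% lower and 25.9% higher, where the fit without it called 17.0% and 20.1%. In the comparisons with WT the numbers did not pair the samples, with correlations of same-numbered libraries from -0.09 to 0.16, and not every library correlated best with its own number. The block gave 6 iron genes in each, with Tfr2 gained in P2+ over WT, where it called 14.7% (P2+), 11.5% (P2-) and 16.4% (KO) of all genes tested, and changed no call of an iron gene beyond those named. Leaving out 1 library gave 4 to 11 other iron genes between P2+ and WT, 3 to 9 between P2- and WT and 6 to 10 between KO and WT. In KO over WT, all 12 libraries in one model gave 7 and leaving out number 2 in both groups gave 2. The cause of these shifts was not tested. A difference that did not pass the test does not show that the levels are equal. Single-gene ferritin levels depend on how reads of copies were assigned.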

Other observations

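Markers of other blood lineages were read beside the iron genes. By the study's methods the sort stained with a lineage cocktail and for CD16/32 and CD41, which serve to set mature blood cells, granulocyte and macrophage progenitors and megakaryocyte progenitors apart from PreMegEs. The 12 megakaryocyte markers, with Gp5 and Itga2b the most abundant, summed to 1254 to 1813 CPM in P2+, 789 to 902 in WT, 673 to 699.5 in KO and 295 to 375 in P2- libraries, and P2+ PreMegEs had 10 of the 12 at a higher and 0 at a lower level than P2- (edgeR's quasi-likelihood test, adjusted p under 0.05; over all genes 20.1% were higher and 17.0% lower). Neutrophil and monocyte markers, led by Lyz2 and Mpo, summed to 332 to 477 CPM in P2+ and 64.6 to 119 in P2- libraries. Lymphoid markers, led by Cd79b and Rag1, summed to 28.4 to 79.0 CPM in P2+ and 11.3 to 18.05 in P2- libraries, and 4 of 6 tested were at a higher and 0 at a lower level in P2+ than in P2-. A gene could enter the test through the group where it is high alone, so counts over the scarce markers are a description. Among mast cell and basophil markers Il1rl1, the receptor for interleukin 33, was at a mean of 369 CPM in P2-, 402 in KO, 202 in WT and 119.8 in P2+ PreMegEs. The others of that list went the other way on the whole: 4 of its 5 tested genes were at a higher and 1 at a lower level in P2+ than in P2-, with a median log2 fold change of 1.24, and Ms4a2 was at a mean of 70.7 CPM in P2+ against 9.15 in P2-.

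Of 8 genes listed around the iron regulon of MYC, BACH and NRF2, Myc and Nfe2 the most abundant, P2+ PreMegEs had 2 at a lower and 0 at a higher level than P2-, beside 17.0% and 20.1% of all genes, with a median log2 fold change of -0.18. KO PreMegEs had 1 at a higher and 0 at a lower level than WT, beside 6.18% and 8.76% of all genes. In each library the iron genes summed to between 890 and 1724 CPM, and the ranges were 890 to 1054 in P2+, 1203 to 1267 in WT, 1608 to 1724 in KO and 1667 to 1698 in P2- PreMegEs. The 72 other iron genes summed to 4268 to 4478 CPM in P2+ and 4937 to 5057 CPM in P2- libraries.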
